A study of Homo sapiens with 40 samples.

Results

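TRPS1, a single gene among the 62486 gene IDs of the count table, was described together with the chromosome 8 window in which its compartment signal changed sign. The window, chr8:114000001-118000000 of GRCh37 (hg19), holds 40 of the 26496 compartment bins of 100 kb. Gene and window were chosen on readouts of these samples: TRPS1 for its higher RNA level and the window for a long run of bins going from a negative to a positive compartment signal. Those values are therefore given as a description, with no test. The samples are A549, a human line established from a lung adenocarcinoma. Cells labelled control (CT) were compared with a SETDB1 knockout (KO) made with CRISPR/Cas9 from the PX458 plasmid. All cells were grown under the same conditions, and the labels do not say whether the KO is 1 clone. The 40 samples comprise 3 RNA-seq libraries, 2 Hi-C libraries and 2 ChIP-seq libraries per mark for each genotype, with their inputs. Nothing in the labels says that replicates came from separate cultures, so the p-values measure the spread between these samples, which may be technical.

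TRPS1 is an atypical member of the GATA family. It has one GATA-type zinc finger and a pair of C-terminal fingers of the Ikaros type, and it acts mostly as a transcriptional repressor. Loss of one copy causes tricho-rhino-phalangeal syndrome, which affects hair, face and growth plate cartilage, and the protein is abundant in luminal breast epithelium. SETDB1 is a methyltransferase that writes H3K9me3, a mark of silent chromatin. Hi-C separates the genome into compartments of active and silent chromatin and into topologically associating domains (TADs), stretches within which contacts are frequent and whose ends are often bound by CTCF. H3K27me3 is the mark of Polycomb silencing, H3K4me3 marks promoters, and H3K27ac marks active promoters and enhancers.

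SETDB1 was examined before the other genes. Its level, in CPM (the count relative to the library size after TMM scaling, the trimmed mean of M values), was 37.5, 39.6 and 38.7 in the control libraries and 23.4, 21.2 and 21.1 in the KO libraries. Every KO library was below every control library, and the transcript fell by 0.82 on the log2 scale (SE 0.060, edgeR quasi-likelihood test, adjusted p = 1.7e-12). The labels do not say which exon was targeted. Library totals ran from 18065062 to 48364919 counts. The 12 markers of A549-like epithelium summed to between 22871 and 23526 CPM in the control libraries and between 27851 and 28819 CPM in the KO libraries. KRT8, ALDH1A1 and KRT18 had the largest increases in CPM, whereas AKR1B10, AKR1C1, AKR1C3 and NQO1 fell by 0.87, 1.54, 0.69 and 0.14 on the log2 scale (edgeR adjusted p from 3.6e-22 to 0.004). Fibroblast markers summed to between 4.74 and 5.21 CPM over all 6 libraries, with COL1A2 and DCN at 0. Within that sum PDGFRA fell by 3.19 on the log2 scale, from 1.30 to 0.128 CPM (edgeR adjusted p = 2.2e-09). COL3A1 and COL1A1 rose by 1.42 and 0.30 (edgeR adjusted p = 0.00061 and 0.041). The 6 leukocyte markers summed to between 4.04 and 4.95 CPM in control and between 1.88 and 2.36 CPM in KO, with CD3E at 0 and most of the rest from ITGAM. The 4 endothelial markers found in the table summed to between 0.297 and 0.412 CPM in control and between 4.15 and 5.40 CPM in KO, most of it from CDH5. The part of these markers in the results was not tested, and in bulk samples fewer cells of a type and less RNA per cell cannot be told apart.

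TRPS1 RNA was close to absent in control cells and abundant in KO cells. The control libraries held 2, 2 and 6 counts, or 0.085, 0.110 and 0.206 CPM, with a mean of 0.134 ± 0.064 (SD, n = 3). The KO libraries held 923, 1929 and 803 counts, or 40.3, 39.1 and 35.8 CPM, with a mean of 38.4 ± 2.34 (SD, n = 3). The groups were far apart, and the KO level exceeded that of SETDB1 in the same libraries in CPM, a unit that does not adjust for gene length. The fitted log2 fold change was 8.04. Its SE of 0.16, derived from the F statistic of the edgeR test, is too small for a gene with so few control counts. The summed CPM differed 273-fold with a 95% counting interval of 148 to 570.5, which is wider and covers counting error only. The log2 fold change of TRPS1 ranked 105 of the 17767 genes tested, of which 32.8% were called higher in KO.

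The long non-coding gene TRPS1-AS1, which follows TRPS1 in the RefSeq order of GRCh38.p14, held 0, 0 and 0 counts in control and 3, 3 and 0 counts in KO and was not tested. The count settings for strand are not given in the sources used here, so reads from a gene and an antisense partner may not be separable.

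The genes around TRPS1 on chromosome 8 did not rise as a group. No GRCh37 annotation was used, so these genes were not placed inside or outside the run of bins that changed sign. Of 11 listed neighbours, 7 passed the filter on low counts, and 3 of these were called higher and 2 lower in KO. That is 71.4% called, beside 62.8% of all genes tested, and the median log2 fold change of the 7 was -0.06 against 0.00 for all genes tested. The same 3 higher and 2 lower were counted under every scaling, model and left-out library tried. CSMD3, LINC00536, AARD and SLC30A8 did not pass the filter. SLC30A8, a zinc transporter of insulin granules, was at 0 in all 6 libraries. LINC00536, a long non-coding gene, held 0, 0 and 0 counts in control and 2, 2 and 0 in KO.

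EIF3H, UTP23 and RAD21, which follow in the RefSeq order beyond the 10 entries nearest to TRPS1, were highly expressed in both genotypes. EIF3H, a subunit of a translation initiation factor, measured 134, 121 and 120.1 CPM in control and 117, 116 and 128 CPM in KO, with overlapping groups (log2 fold change -0.06, edgeR adjusted p = 0.32). RAD21, the cleavable subunit of the cohesin ring that holds chromatin loops, measured 296, 285 and 292 CPM in control and 246, 238 and 244 CPM in KO. These groups did not overlap, and RAD21 fell by 0.27 on the log2 scale (SE 0.040, edgeR adjusted p = 1.6e-06). UTP23, which takes part in ribosome assembly, measured 33.6, 32.3 and 32.5 CPM in control and 29.3, 26.4 and 25.9 CPM in KO, again without overlap, and fell by 0.27 on the log2 scale (SE 0.060, edgeR adjusted p = 0.00027).

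Farther neighbours included several genes that rose. EXT1, a polymerase of heparan sulfate that is lost together with TRPS1 in Langer-Giedion syndrome, measured 46.3, 44.1 and 45.5 CPM in control and 70.0, 67.8 and 63.0 CPM in KO (log2 fold change 0.56, SE 0.052, edgeR adjusted p = 2.2e-10). SAMD12 rose from 1.31 ± 0.16 to 3.96 ± 0.25 CPM (SD, n = 3; log2 fold change 1.62, SE 0.16, edgeR adjusted p = 7.2e-10). TNFRSF11B encodes osteoprotegerin, the decoy receptor for the osteoclast factor RANKL. It measured 0.085, 0.055 and 0.103 CPM in control and 4.23, 4.26 and 3.52 CPM in KO (log2 fold change 5.51, SE 0.29, edgeR adjusted p = 1.4e-15). MED30, a Mediator subunit, went from 5.26 ± 0.61 to 4.62 ± 0.31 CPM (SD, n = 3) and did not pass (log2 fold change -0.21, edgeR adjusted p = 0.12). Across a wider stretch, the 50 tested genes nearest to TRPS1 in order had a median log2 fold change of -0.07, with 15 called higher and 19 lower. The 529 tested genes of chromosome 8 had a median of 0.02, with 183 called higher and 162 lower. Of all genes tested 32.8% were called higher and 30.0% lower.

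**Figure D1:**
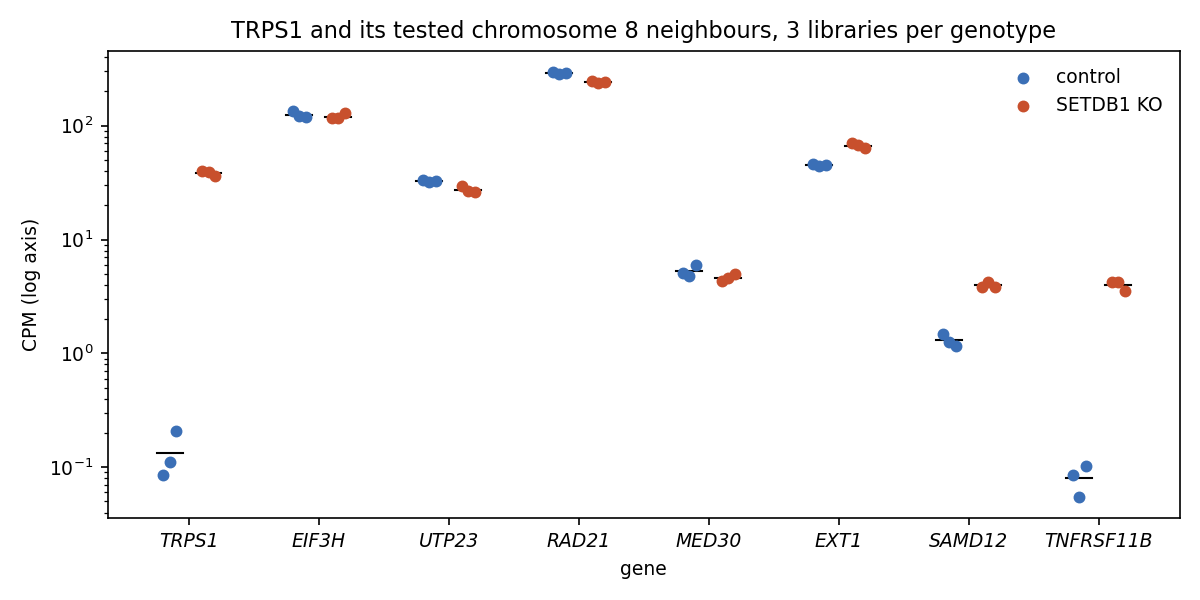
CPM of TRPS1 and its 7 tested chromosome 8 neighbours on a log axis, in RefSeq order, with 1 point per library (3 control, 3 KO) and a black bar at each mean. TRPS1 and TNFRSF11B lie near 0.1 CPM in control and at 35.8 to 40.3 and 3.52 to 4.26 CPM in KO, whereas EIF3H, UTP23, RAD21 and MED30 lie close together in both genotypes.

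In the control cells nearly the whole window carried a negative compartment signal, and in the KO cells most of it carried a positive one. The sign follows chromatin activity in these files: bins that were positive in every Hi-C library had 7.61% of their bases under control H3K27ac peaks, and bins negative in every library had 0.334%. The scale of the signal is not given in the sources used here. The window mean was -0.76 and -0.74 in the 2 control replicates and 0.38 and 0.40 in the 2 KO replicates, a mean change of 1.14. In both control replicates 35 of the 40 bins were negative and 5 positive, and in both KO replicates 33 were positive and 2 negative, with 5 of mixed sign. Counted per bin, 29 were negative in both control and positive in both KO replicates, the property for which the window was chosen, beside 5.01% of all 26496 bins. The median difference between replicates over the window was 0.047 in control and 0.051 in KO.

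The change was not uniform along the window. At its left end the control signal was lowest, at -1.24 and -1.18 in the first bin, and the KO signal was near 0, at -0.07 and 0.03. The KO signal stayed close to 0 through chr8:114900001-115000000, where it was 0.02 and 0.04, and increased along the window to 0.79 and 0.82 at chr8:116700001-116800000. The control signal at that bin was -0.63 in both replicates. From chr8:117500001 to chr8:117900000 the bins were positive in both genotypes: the bin ending at 117600000 measured 0.06 and 0.11 in control and 0.63 and 0.59 in KO. The last bin of the window went the other way, from 0.06 and 0.02 in control to -0.12 and -0.06 in KO. The unbroken run of switching bins covered 28 bins, chr8:114700001-117500000, when every replicate had to have the sign, and 30 bins, chr8:114500001-117500000, on genotype means.

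The bins on either side of the window's edges had these values. On the left, the genotype means were -1.06 in control and 0.05 in KO just outside and -1.21 and -0.02 just inside. On the right they were 0.04 and -0.09 just inside and -0.30 and -0.19 just outside. Flanks of 4 Mb on each side were tested with limma over all bins, of which 21.6% were called higher and 37.3% lower in KO. Taken without regard to direction, 58.8% of all bins were called, and 59 of the 80 flanking bins. In the left flank 31 of 40 bins were called higher and 5 lower, and 7 went from negative to positive. The part of it next to the window had KO values close to 0. In the right flank 16 of 40 bins were called higher and 7 lower, and 7 also went from negative to positive. Neighbouring bins belong to the same domains and are not independent.

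**Figure D2:**
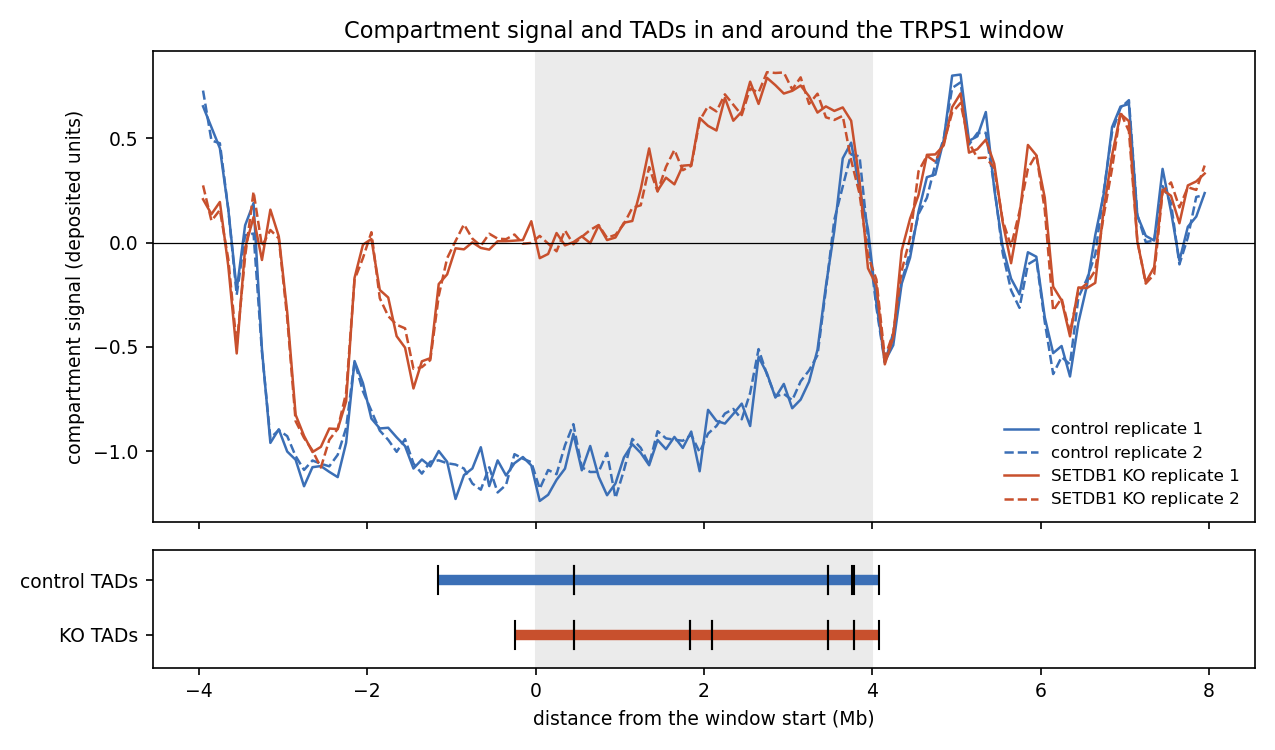
Compartment signal per 100 kb bin for the 2 control and 2 KO Hi-C replicates, against distance from the window start (window shaded), with the deposited TADs that overlap the window drawn below as bars with ticks at their ends. Control replicates lie near -1 on the left side of the window, rise along its right side and are positive in its last bins. KO replicates climb from about 0 at the window start to 0.79 and 0.82, and the long control TAD matches 3 KO TADs.

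The TAD calls of the control placed most of the switching run inside one domain, and those of the KO split it. Control cells had a TAD of 3020 kb at chr8:114460001-117480000, which ranked 37 by length among 6118 control TADs with a median of 300 kb. KO cells kept both of its ends and had 3 TADs in its place, of 1380, 260 and 1380 kb. The added boundaries, at 115840000 and 116100000, each lay 1380 kb from the nearest control boundary. They were 2 of the 5 KO boundaries in the window with no control boundary within 1 step of the 20 kb grid, beside 7.44% of all KO boundaries. None of the 4 control boundaries in the window lacked a KO partner, beside 5.52% of all control boundaries. There was 1 TAD list per genotype, so these calls have no replicate check.

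CTCF peaks stood near some of these ends. At the boundary at 114460000 a CTCF peak called in both genotypes (chr8:114449955-114450247 in control) lay 9.75 kb away. At 116100000 the nearest CTCF peak, chr8:116089059-116089353 in control, was also called in both genotypes and lay 10.7 kb away. At 115840000 the nearest KO CTCF peak, chr8:115858915-115859141, lay 18.9 kb away and the nearest control CTCF peak 35.8 kb away. At 117480000 a KO CTCF peak lay 19.5 kb away and the nearest control peak 92.7 kb away. These distances are to the nearest peak in either direction and were not compared with other boundaries.

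H3K9me3, the mark written by SETDB1, covered far less of the window in KO than in control. Control cells had 272 peaks that covered 19.7% of its bases, and KO cells had 48 peaks that covered 3.15%. Of the control peaks 245 had no KO peak overlapping them by 1 bp or more, beside 60.0% of all control H3K9me3 peaks. Of the KO peaks 19 had no control partner, beside 56.3% of all KO H3K9me3 peaks. Coverage was lower in KO in 35 of the 40 bins, beside 16041 of all 26496 bins. Among the 1299 bins elsewhere that went from negative to positive in every replicate it was lower in 1077. The whole lists held 102976 control and 53949 KO peaks. Only the share of bases covered over all bins went the other way, from 12.4% to 23.2%. Bins negative in every library went from 15.3% to 57.4%, and bins positive in every library from 9.53% to 0.939%. The widest KO peak in the window, chr8:114713911-114724728 (10818 bp), lay at its left side and had a control partner. With the window narrowed by 1 Mb on each side KO coverage was 0.132%. Each mark had 1 peak list per genotype, so its peak values have no spread and were not tested, and the number of peaks called in a list depends on depth and enrichment as well as on the mark.

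Peaks of H3K4me3 and H3K27ac, few in control, were numerous in KO. H3K4me3 went from 22 to 206 peaks and from 0.942% to 5.50% of bases. It covered more in KO in 40 of 40 bins, beside 13640 of all 26496 bins. Among the 1299 bins elsewhere that went from negative to positive in every replicate it covered more in 1177. Of the KO peaks 187 had no control partner, beside 30.2% of all KO H3K4me3 peaks, and 2 of the control peaks had no KO partner, beside 14.9%. H3K27ac went from 11 to 64 peaks and from 0.470% to 2.38% of bases, and 54 of the KO peaks had no control partner, beside 31.3% of all KO H3K27ac peaks. Of the control H3K27ac peaks 1 had no KO partner, beside 26.9% of all control ones. The 10 H3K27ac peaks of the control that had a KO partner all lay at or beyond chr8:117460321, in the right-hand end of the window. In the 2 Mb at its centre the control list held no H3K27ac peak. Among KO H3K27ac peaks of the window 92.2% also overlapped a KO H3K4me3 peak, compared with 70.3% in the whole list. Conversely 27.7% of the KO H3K4me3 peaks overlapped a KO H3K27ac peak, compared with 60.5% in the whole list.

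H3K27me3 peaks were more numerous in KO as well, mainly on the left side of the window. It went from 49 to 157 peaks and from 5.42% to 13.1% of bases, and 128 of the KO peaks had no control partner, beside 29.0% of all KO H3K27me3 peaks. Of the control peaks 21 had no KO partner, beside 47.0% of all control ones. Of the 128 KO-only peaks 48 overlapped a control-only H3K9me3 peak, or 37.5% (95% Wilson interval 29.6 to 46.1%, counting error only), compared with 12.2% of the KO-only H3K27me3 peaks of the whole genome. For KO-only H3K4me3 peaks the same share was 23.0% (17.5 to 29.5%), compared with 16.2% in the genome. For KO-only H3K27ac peaks it was 22.2% (13.2 to 34.9%), compared with 15.1%. Counted from the 245 control-only H3K9me3 peaks of the window, 23.7% overlapped a KO H3K27me3 peak, compared with 27.95% in the genome. For KO H3K4me3 peaks this share was 18.4%, compared with 10.8%, and for KO H3K27ac peaks 5.31%, compared with 11.4%. Control H3K9me3 peaks were denser in the window, at 68.0 per Mb, than over all bins, at 37.7 per Mb. The control-only ones used for these overlaps were 245 of the 272 control peaks in the window and 60.0% of those in the genome. Their density therefore differed by more. The CTCF peaks of the window were fewer in KO, going from 44 to 27 peaks, of which 4 were shared. The 40 control peaks without a partner stood beside 44.1% of all control CTCF peaks, and the 23 KO peaks without one beside 61.4% of all KO CTCF peaks. Genome-wide the CTCF lists held 23903 control and 34474 KO peaks.

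The 3 KO domains that replaced the long control TAD differed in these marks. In the left one, chr8:114460001-115840000, the signal went from -1.04 and -1.03 to 0.17 and 0.19. H3K9me3 coverage there went from 31.0% to 5.87%, and H3K27me3 went from no peak to 79 peaks over 16.1% of bases. It had no H3K4me3 or H3K27ac peak in control and 78 and 5 in KO. In the middle one, chr8:115840001-116100000, the signal went from -0.94 and -0.95 to 0.51 and 0.54, and H3K9me3 went from 32.8% to 0.519% while H3K27me3 went from no peak to 12 peaks over 17.7%.

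In the right one, chr8:116100001-117480000, the KO signal was higher, at 0.69 and 0.72, after -0.70 and -0.68 in control. H3K9me3 started lower there, at 8.71%, and reached 0.117%. H3K27ac went from 2 to 40 peaks and from 0.114% to 4.52% of bases, and H3K4me3 from 8 to 83 peaks and from 0.569% to 6.94%. H3K27me3 covered 4.55% in control and 4.44% in KO. The left and right domains are of equal length, so the 40 KO H3K27ac peaks of the right domain can be set directly beside the 5 of the left one, as can the H3K27me3 peaks, 29 beside 79 in KO. To the right of the control TAD, at chr8:117780001-118080000, H3K27me3 already covered 57.9% in control and covered 66.8% in KO.

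**Figure D3:**
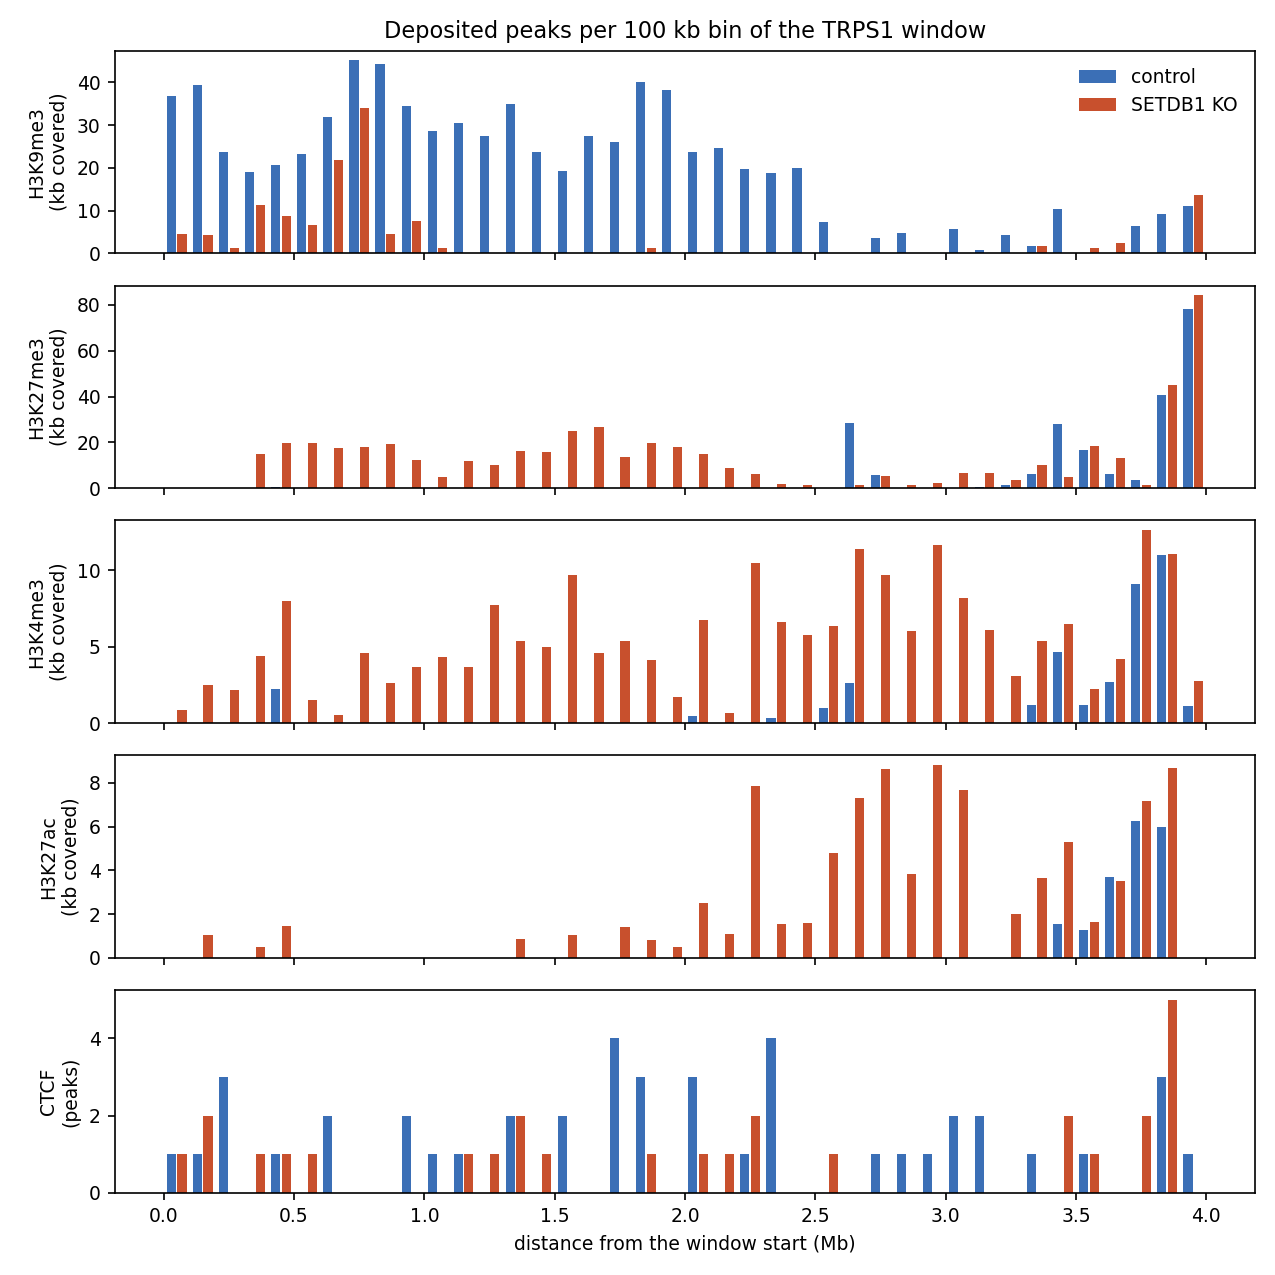
Bases (kb) of each 100 kb bin under deposited peaks of H3K9me3, H3K27me3, H3K4me3 and H3K27ac, and the number of CTCF peaks per bin, in control and KO, against distance from the window start. H3K9me3 is high in control up to about the middle of the window and mostly absent from KO. KO H3K27me3 is spread over the left side, where control has almost none. It is highest in the last bins at the right end, where control is high too. KO H3K27ac stands mainly on the right side. H3K4me3 is higher in KO in 40 of 40 bins, beside 13640 of all 26496 bins.

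Within the window the KO signal was higher where KO H3K27ac coverage was higher (Spearman's rho 0.71 across 40 bins) and lower where KO H3K9me3 remained (rho -0.68). KO H3K9me3 peaks were absent from 24 of the 40 bins. In control the signal was lowest where H3K9me3 covered most (rho -0.85) and higher where H3K27me3 covered more (rho 0.76), and in KO the value for H3K27me3 was -0.37. Between the change in coverage and the change in signal, rho was -0.14 for H3K9me3 and 0.02 for H3K27me3. It was 0.47 for H3K27ac, 0.61 for H3K4me3 and -0.35 for CTCF. These bins are adjacent and share their libraries, so the values are descriptions.

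Some single intervals, chosen after their values were seen, show these differences at close range. The widest control H3K27me3 peak of the window, chr8:116662542-116678375 (15834 bp), had no KO partner. Beside it a control H3K4me3 peak of 1680 bp, chr8:116680403-116682082, corresponded to a KO peak of 6074 bp, chr8:116676705-116682778, which reached 1671 bp into the interval of that H3K27me3 peak. A pair of KO-only H3K27ac peaks, chr8:116677897-116679920 and chr8:116680319-116682376, lay at the same place. The KO H3K4me3 peak at chr8:114444496-114451141 (6646 bp) likewise took in 2 control peaks of 1030 and 1210 bp, together with the shared CTCF peak at the domain boundary. The widest KO H3K27ac peak of the window, chr8:116749830-116753736 (3907 bp), had no control peak. An annotation of GRCh37 was not used here, so these peaks were not assigned to TRPS1 or to another gene, exon or UTR.

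The 29 switching bins of the window were set beside the 1299 other bins of the genome that went from negative to positive in every replicate. H3K9me3 coverage was lower in KO in both, from 20.3% to 1.96% in the window and from 18.0% to 2.42% in the others. H3K27ac reached a like level in both, from 0.0541% to 2.46% in the window and from 0.776% to 2.52% in the others. H3K4me3 went from 0.355% to 5.82% in the window and from 1.35% to 3.88% in the others. H3K27me3 went from 2.43% to 10.6% in the window, whereas in the others it was 12.6% in control and 12.4% in KO. Its coverage was higher in KO in 25 and lower in 3 of the 29 window bins. Among the 1299 others it was higher in 450 and lower in 483. CTCF peaks went from 10.7 to 4.83 per Mb in the window and from 5.45 to 6.27 per Mb in the others. None of these differences was tested, since each value comes from 1 list per genotype.

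**Figure D4:**
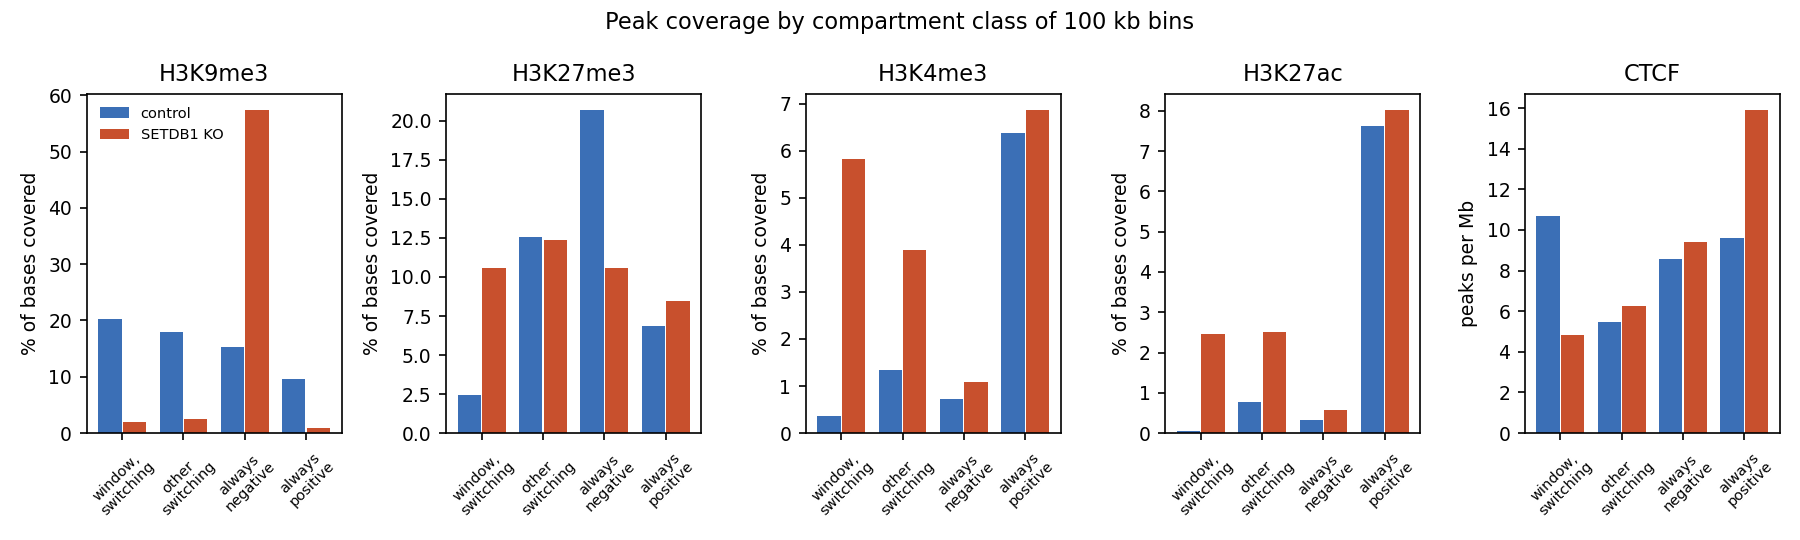
Percent of bases under peaks (CTCF: peaks per Mb) in control and KO, for the 29 switching bins of the window, the 1299 other switching bins, 10039 bins negative and 12827 bins positive in every Hi-C library. In the window H3K27me3 and H3K4me3 bars go from 2.43% to 10.6% and from 0.355% to 5.82%, while CTCF goes from 10.7 to 4.83 peaks per Mb.

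Genes known from work on TRPS1 were counted in 7 lists: relatives, repressor partners, and genes of the tissues in which it acts. Of 105 listed genes 90 were tested, with 41 called higher and 30 lower in KO. That is 78.9% called, beside 62.8% of all genes tested, and the median log2 fold change was 0.08. The lists are described by these counts, and no test of a list was made. SETDB1 status differs between the groups in addition to TRPS1, so a link of any listed gene to TRPS1 cannot be told apart from the genotype.

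Among the classical GATA factors and ZGLP1, 6 of 7 were tested, with 5 called higher and 1 lower (median log2 fold change 0.66). Of the tested ones 83.3% were called higher, beside 32.8% of all genes tested. GATA3, which specifies luminal cells, measured 2.00, 2.32 and 2.30 CPM in control and 4.45, 6.23 and 5.39 CPM in KO (log2 fold change 1.32, SE 0.14, edgeR adjusted p = 6.5e-09). GATA2, known from blood progenitors, fell by 1.40 on the log2 scale, from 3.37 ± 0.14 to 1.25 ± 0.16 CPM (SD, n = 3; edgeR adjusted p = 1.5e-08). GATA5 rose from 1.34 ± 0.34 to 2.70 ± 0.23 CPM (SD, n = 3; log2 fold change 1.08, edgeR adjusted p = 8.1e-06). All of them stayed far below TRPS1 in KO in CPM, which does not adjust for gene length. ZGLP1 was near the threshold (log2 fold change 0.73, edgeR adjusted p = 0.042), and its call was lost in 7 of the alternatives. Its adjusted p was 0.17 and 0.25 without control replicates 2 and 3, 0.12, 0.058 and 0.064 without KO replicates 1, 2 and 3, 0.11 with DESeq2 and 0.054 with upper quartile scaling. GATA4 (log2 fold change 0.43, edgeR adjusted p = 0.016) did not pass without control replicate 1, without control replicate 3 or with DESeq2, at adjusted p = 0.072, 0.070 and 0.087. The count of higher GATA genes ran from 3 to 5 over the alternatives.

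The Ikaros family shares its C-terminal fingers with TRPS1, and 3 of its 5 genes were tested. IKZF2 (Helios) measured 0.807, 1.49 and 0.996 CPM in control and 4.15, 3.79 and 4.28 CPM in KO, groups that did not overlap (log2 fold change 1.92, SE 0.18, edgeR adjusted p = 2.6e-10). IKZF4 went from 2.01 ± 0.36 to 2.84 ± 0.46 CPM (SD, n = 3; log2 fold change 0.52, edgeR adjusted p = 0.0083) and did not pass without KO replicate 2, at adjusted p = 0.15, or with DESeq2, at 0.054. IKZF1 was at 0 in all libraries.

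The co-repressor partners, 23 genes of the NuRD, CoREST and CtBP complexes and others, went in both directions, with 8 called higher and 9 lower (median 0.02). The share called higher was 34.8%, beside 32.8% of all genes tested. The NuRD remodeller CHD3 rose from 186 ± 5.78 to 308 ± 9.71 CPM (SD, n = 3; log2 fold change 0.72, edgeR adjusted p = 1.1e-14). The deacetylase HDAC4 fell by 0.65 on the log2 scale (edgeR adjusted p = 2.2e-09) and the NuRD subunit MTA3 by 0.44 (edgeR adjusted p = 2.4e-08). None of these partners was absent from either genotype.

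The YAP and TEAD list holds the effectors of the Hippo pathway, whose target sites TRPS1 is known to repress in breast cancer cells. Of 21 tested genes 7 were called higher and 10 lower (median -0.09). The share called higher was 33.3%, beside 32.8% of all genes tested. CCN1, a matricellular YAP target, measured 27.3, 27.7 and 26.6 CPM in control and 10.3, 10.997 and 11.5 CPM in KO and fell by 1.31 on the log2 scale (SE 0.068, edgeR adjusted p = 1.2e-15). ANKRD1 fell by 1.12 (edgeR adjusted p = 3.8e-08) and AMOTL2 by 0.64 (edgeR adjusted p = 1.2e-10). NT5E, the ectoenzyme CD73, went the other way, from 61.2 ± 0.97 to 128 ± 3.37 CPM (SD, n = 3; log2 fold change 1.06, edgeR adjusted p = 1.3e-17). Among the effector genes themselves, YAP1 had a log2 fold change of 0.22 (edgeR adjusted p = 0.00031) and TEAD1 of -0.36 (edgeR adjusted p = 1.7e-08).

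The skeletal and hair genes, where TRPS1 acts during development, included both the largest rises and falls of the lists. Of 16 tested genes 7 were called higher and 6 lower (median 0.05). The share called higher was 43.8%, beside 32.8% of all genes tested. FST, the activin antagonist follistatin, measured 28.4, 28.2 and 25.3 CPM in control and 0.524, 0.690 and 0.980 CPM in KO and fell by 5.23 on the log2 scale (SE 0.12, edgeR adjusted p = 1.6e-23). SOX6, a chondrocyte factor, measured 1.70, 1.88 and 1.89 CPM in control and 12.9, 13.3 and 11.8 CPM in KO (log2 fold change 2.80, SE 0.12, edgeR adjusted p = 6e-18). GLI3, a Hedgehog effector, was at 0.042, 0 and 0 CPM in control and at 0.655, 0.609 and 0.936 CPM in KO (edgeR adjusted p = 1.1e-07), with 1 count in all control libraries together. SOX21, a factor of hair shaft cuticle, fell by 1.81 on the log2 scale (edgeR adjusted p = 2.7e-09).

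Luminal epithelial genes were called higher in 9 of 13 tested cases and lower in 2 (median 1.08), or 69.2% higher beside 32.8% of all genes tested. FOXA1, a pioneer factor of luminal cells, measured 16.3, 17.3 and 16.1 CPM in control and 71.4, 75.3 and 75.2 CPM in KO (log2 fold change 2.16, SE 0.057, edgeR adjusted p = 1.6e-22). The simple epithelial keratins rose as well: KRT19 from 74.0 ± 4.83 to 416 ± 20.2 CPM (SD, n = 3; log2 fold change 2.49), KRT18 by 1.73 and KRT8 by 1.54 on the log2 scale (edgeR adjusted p = 2.6e-24, 2.2e-23 and 7.5e-21). KRT8 and KRT18 are also among the 12 epithelial markers and, with ALDH1A1, had the largest increases in CPM of that list, of which 4 markers fell. The estrogen receptor gene ESR1 stayed below 1 CPM in every library and did not pass (edgeR adjusted p = 0.39).

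Among 10 genes of epithelial-mesenchymal transition 4 were called higher and 3 lower (median 0.14). ZEB2, a repressor of epithelial genes, fell by 2.11 on the log2 scale, from 8.88 ± 0.52 to 2.08 ± 0.29 CPM (SD, n = 3; edgeR adjusted p = 8.7e-15). The cadherin CDH1 went from 27.1 ± 0.78 to 52.4 ± 1.32 CPM (SD, n = 3; log2 fold change 0.95, edgeR adjusted p = 8.4e-15), and EPCAM rose by 1.41 (edgeR adjusted p = 1.4e-12). SNAI2, the transition factor Slug, rose too, from 0.297 ± 0.116 to 2.86 ± 0.55 CPM (SD, n = 3; log2 fold change 3.16, edgeR adjusted p = 2.5e-11). The cadherin CDH2 also rose, by 0.73 on the log2 scale (edgeR adjusted p = 3.8e-12).

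**Figure D5:**
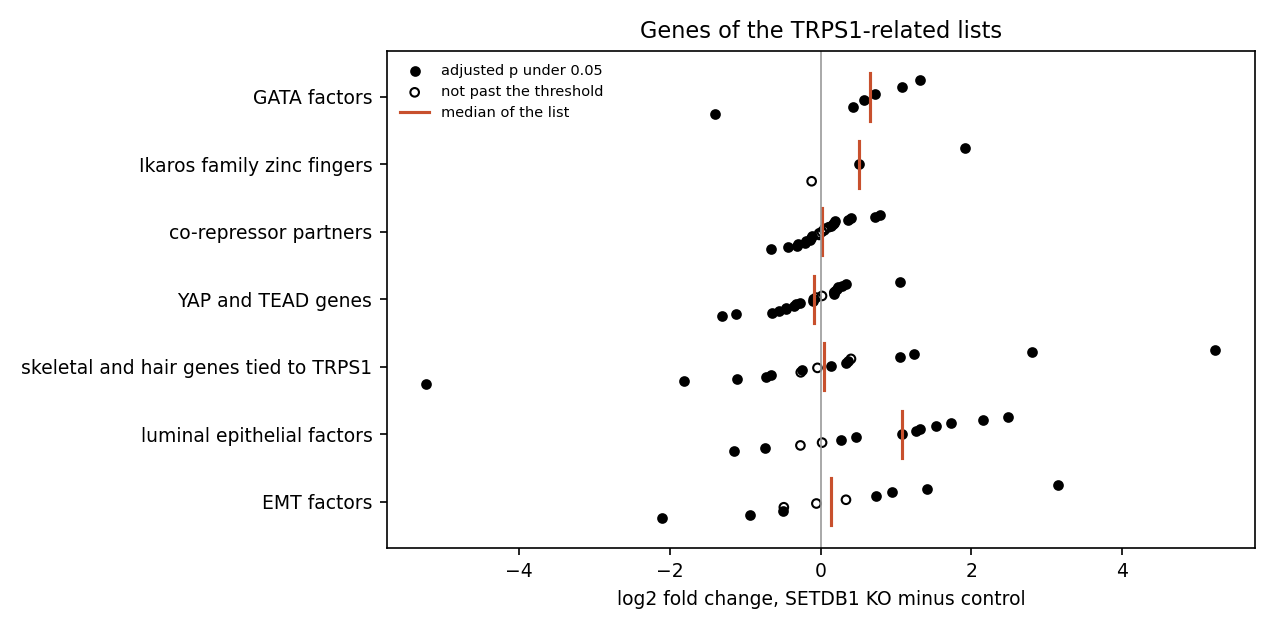
Log2 fold changes (KO minus control) of the tested genes of 7 lists related to TRPS1, 1 point per gene, filled where the edgeR adjusted p was below 0.05, with a bar at each list's median. The luminal list has its median at 1.08, the co-repressor list at 0.02, and FST and GLI3 lie farthest out.

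The genes whose profile over the 6 libraries was nearest to that of TRPS1, by Euclidean distance of centred log2 CPM among 14471 genes with a mean of at least 1 CPM, were ZNF716, ZNF702P, ZNF28, ZNF700 and MECOM. Their distances were 0.320, 0.417, 0.880, 0.905 and 0.967. ZNF716, ZNF28 and ZNF700 are zinc finger genes and ZNF702P a zinc finger pseudogene, families in which reads can be shared between near-identical copies. MECOM encodes the transcription factor EVI1. ZNF28 had 0.510, 0.497 and 0.618 CPM in control and 104, 96.2 and 102 CPM in KO, and MECOM had 0, 0 and 1 counts in control and 321, 651 and 311 counts in KO. None of the 5 genes lies on chromosome 8, and likeness here means only that they were low in the same 3 libraries and high in the other 3.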

How the data were processed

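The members and gene lists were chosen with earlier results of these data known. Per the file headers, the authors deposited raw counts per gene ID for 6 RNA-seq libraries (18065062 to 48364919 counts), and a signed compartment score per 100 kb bin for each Hi-C replicate and genotype. Peaks and TADs were deposited as positions, 1 list per mark and genotype, per the labels. The KO H3K4me3 libraries, whose antibody label lacks a digit, were grouped by title. The submitters' processing notes name STAR 2.6.1c, edgeR 3.30.0, Bowtie2 2.2.3, SAMtools 1.5, Picard and MACS2 and the build hg19, with no role or order. The counter, strand setting, compartment method, peak settings, pooling and TAD caller are not given in the sources used here.

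Counts were tested with edgeR 4.0.16 (TMM scaling, filterByExpr, robust quasi-likelihood fit, KO against control, Benjamini-Hochberg adjustment over 17767 genes, threshold 0.05). Each SE of a log2 fold change was its absolute value divided by the square root of the edgeR F statistic. That SE is too small for large changes with few counts in 1 group, as for TRPS1, TNFRSF11B and FST. Bins were tested with limma 3.58.1 on the 4 replicate columns over 26496 bins. Peaks overlapped when they shared 1 bp. Positions are 1-based. Gene symbols matched 93.8% of gene IDs, and the RefSeq table of GRCh38.p14 was used only for names and gene order. Named genes were SETDB1, TRPS1, its listed neighbours, in each list those past the threshold among the 4 largest changes, and the 5 nearest profiles. A gene that this rule names is not reported here. YAP1, TEAD1, ESR1, GATA4, CDH2 and single markers were named in addition after their values were seen. A library pair within sampling noise was looked for and not found. The tests and overlaps were tested on simulated data with known answers. The alternatives were other scalings, no filter, DESeq2 1.42.0, limma voom, a replicate block, each library left out, other compartment rules, the wider peaks of each list (at or above its median width), stricter overlaps and other window sizes. No sequence is printed.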

Additional observations from a re-analysis of the deposited data

How the results depend on the processing

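No named gene, count or mean changed sign under the alternatives run. Of 90 values of RNA and compartment counts under alternatives, 2 moved. Genes changed at least 2-fold numbered 2613, and 4020 without the filter on low counts. The mean compartment change of 1.14 became 1.604 when each column was divided by its SD, which changes the unit. Leaving out 1 library gave log2 fold changes of TRPS1 from 7.79 to 8.58, 10174 to 11085 genes changed, 2805 to 2889 of them at least 2-fold, 62 to 69 list genes, and 5 neighbours each time. Leaving out 1 Hi-C library gave 29 to 32 switching window bins, a mean change from 1.13 to 1.15, 47 to 57 flanking bins and 12624 to 15338 bins in all, with the lone sample assumed to vary like the other genotype. The deposited genotype columns gave 32 switching bins, and 23 remained when signals had to exceed the 10th percentile of absolute signal. Same-numbered RNA-seq libraries deviated together with correlations of 0.09, 0.05 and 0.04, and only replicates 1 and 2 correlated best with their own number. Whether the numbers pair the libraries cannot be settled from so few of them. With a replicate block 11655 genes, 72 list genes and 60 flanking bins were called. Of 39 genes with a test that the naming rule picked, 37 kept their call throughout, and ZGLP1 and IKZF4 did not. GATA4, named in addition, did not keep its call either.

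Of 74 peak and TAD values under alternatives, 27 moved. Keeping the wider part of each list by width left, in control and KO, 149 and 9 H3K9me3 peaks, 28 and 70 H3K27me3 peaks, 6 and 25 H3K27ac peaks, 11 and 60 H3K4me3 peaks, and 19 and 9 CTCF peaks, by construction fewer. Coverage with that rule was 1.33% for KO H3K9me3, 1.499% for KO H3K27ac, 3.03% for KO H3K4me3, and 0.147% and 0.0753% for control and KO CTCF. With the window narrowed by 1 Mb on each side coverage was 0.132% for KO H3K9me3, 1.71% for control H3K27me3, 0% for control H3K27ac and 0.222% for control H3K4me3. With it widened by 1 Mb these were 4.89% for KO H3K9me3, 9.39% for control H3K27me3 and 0.777% for control H3K27ac. A reciprocal overlap of 50% gave partners to 2.57% of control and 14.6% of KO H3K9me3 peaks, 36.7% of control and 11.5% of KO H3K27me3 peaks, and 59.1% of control H3K4me3 peaks. The 2 or 3 libraries per group, and peak lists without scores, limit the precision.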
